A study of Mus musculus with 14 samples.

Results

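The timing of vitamin C (VC) was examined in 8 of the 14 somatic cell nuclear transfer (SCNT) embryos of the series, those that had received VC in either of its windows. In the early window, 3 embryos received 10 µg/ml VC from 0 to 8 h after activation began, 1 of them without TSA, VC(0-8h), and 2 with 50 nM TSA over the same hours, TSA(0-8h)+VC(0-8h). In the late window, 5 embryos received VC from 8 to 15 h, 2 of them without TSA, VC(8-15h), and 3 after 50 nM TSA from 0 to 8 h, TSA(0-8h)+VC(8-15h). The other 6 embryos received no VC, 3 of them as controls and 3 with TSA(0-8h), and they serve below only as a reference range. Every embryo was labelled B6D2F1, was activated with strontium, and was collected at the 2-cell stage. Each library came from the RNA of a single embryo after 2 rounds of PCR, of 14 and 12 cycles. Early VC without TSA is represented by 1 embryo. Because 2 of 3 early embryos and 3 of 5 late embryos had received TSA, TSA was a covariate in the comparison of the windows.

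VC is a reducing agent that keeps the iron of 2-oxoglutarate-dependent dioxygenases active, a family that includes the TET enzymes, which oxidize methylated cytosine, and the jumonji histone demethylases. TSA inhibits histone deacetylases. In SCNT the donor nucleus has to be reset by the oocyte cytoplasm before the embryonic genome becomes active, and methylation of histone H3 at lysine 9 (H3K9) that persists in the donor chromatin is a known obstacle to that step. The comparison of the windows asks whether the hours in which VC was present left a trace in the transcripts of the 2-cell embryo.

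Between 3262558 and 13102176 reads per embryo lay behind the values, which are read numbers scaled to transcript length and library total (RPKM) for 25650 transcript entries. With 3 reads as a floor, the limit for an entry of 1 kb lay between 0.229 and 0.920 RPKM across the libraries, which covers counting error only. The early embryos had 6244, 4864 and 6728 entries at 1 RPKM or more, in the order VC(0-8h), TSA(0-8h)+VC(0-8h) replicate 1 and replicate 2. The late embryos had 6342, 3322, 5489, 5539 and 5720, in the order VC(8-15h) replicates 1 and 2 and TSA(0-8h)+VC(8-15h) replicates 1 to 3, and both orders are kept below. VC(8-15h) replicate 2 stood apart from the other 7 embryos, with the fewest entries and with 35.1% of its summed RPKM in its 100 highest entries, against at most 29.5% in the others. Its scaling factor by the median-ratio method was 0.205, against 0.941 to 1.79.

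Detected entries averaged 5945 ± 967 (SD, n = 3) in the early window and 5282 ± 1147 (SD, n = 5) in the late window, as the plot of entries per embryo shows. The TSA-adjusted difference of 641 entries gave p = 0.5 in a two-sided exact permutation test within TSA strata, which allows 30 relabelings and no p below 0.0333. Without VC(8-15h) replicate 2 the difference was 122 entries (exact permutation p = 0.8). Each library was made from part of the RNA of a whole embryo. Fewer intact cells, less RNA per cell and less RNA carried into the library therefore cannot be told apart. The 6 embryos without VC had 3556 to 5439 such entries.

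**Figure D1:**
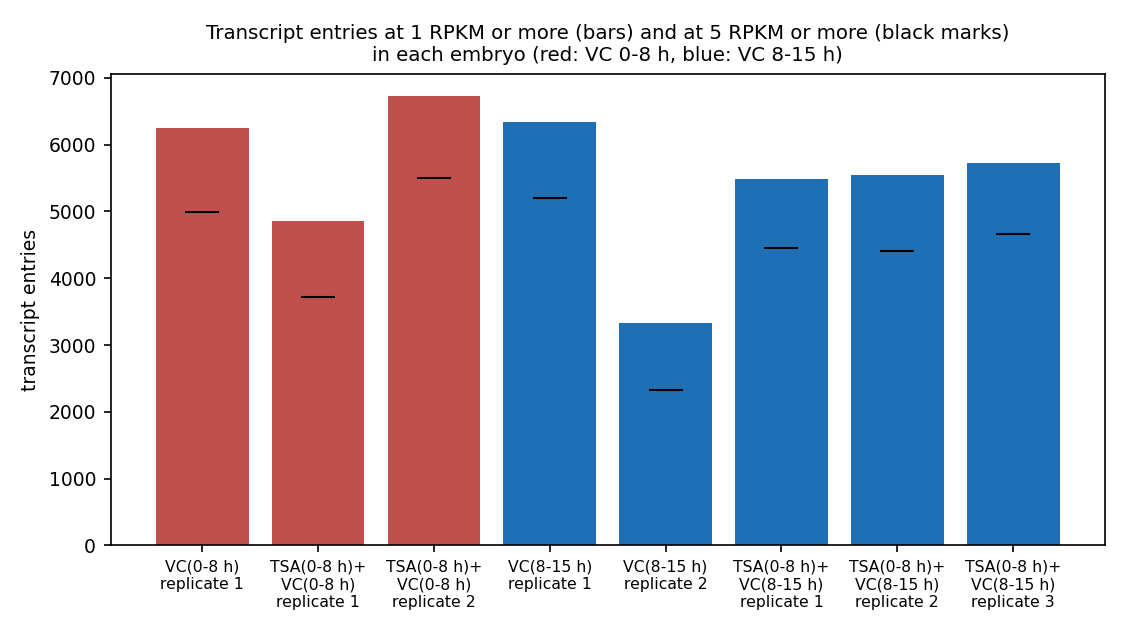
Number of transcript entries in each of the 8 embryos given VC, with bars for entries at 1 RPKM or more and marks for entries at 5 RPKM or more. VC(8-15h) replicate 2 has the shortest bar, at 3322 entries, and of the early embryos, 1 lies within the range of the other 4 late ones, 1 below it and 1 above it.

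The transcriptomes of the windows were no farther apart than embryos of the same window were from each other. The mean distance, as 1 minus Spearman's rank correlation over the tested entries, was 0.618 between embryos of different windows and 0.633 within a window. The difference of -0.0151 gave p = 0.333 in the exact permutation test within TSA strata. It was also below 0 with each embryo left out in turn, from -0.0298 to -0.00442, so no single embryo set its direction. Among pairs from different sequencing pools alone the difference was -0.0121 (exact permutation p = 0.6). Rank correlations ran from 0.410 to 0.446 within pool 2, which held both windows, and from 0.367 to 0.396 within pool 1. Pairs from different pools ran from 0.279 to 0.427.

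Of the 25650 entries, 6791 were at 1 RPKM or more in at least 3 of the 8 embryos and were tested with limma on log2(RPKM+1). After Benjamini-Hochberg adjustment 4 entries (0.0589%) were higher in the early window and 0 (0%) were lower at an adjusted p-value under 0.05. They belonged to 3 genes, Zfp57 with 2 entries, Nfe2l1 and Txnl4a. None of the 4 passed with a pseudocount of 0.1, with a minimum of 5 RPKM or without the trend in limma's variance. At an unadjusted p under 0.05, 196 entries (2.89%) were higher and 65 (0.957%) were lower in the early window. With limma-voom on the reads recovered from the values, 10 and 3 entries passed after adjustment, none of them of Zfp57, Nfe2l1 or Txnl4a. Their differences ran from as small as -0.17 for Ccdc6 (limma-voom adjusted p = 2.8e-205) to 9.95 for Dmwd (0.00012). With p-values so extreme at so small a difference, the limma-voom counts cannot be relied on. All 3 early embryos were above all 5 late embryos in 156 entries (2.3%), and all 5 late embryos were above all 3 early ones in 54 (0.795%). Without VC(8-15h) replicate 2 these last counts were nearly equal, at 189 (2.86%) and 172 (2.6%) of 6607 entries. Those at an unadjusted p under 0.05 were then 172 higher and 121 lower. An entry under 1 RPKM in all late embryos was tested only if all 3 early embryos reached 1 RPKM. The filter therefore fixed the separation of such entries, which are among the 156. How many entries would separate by label order alone was not tested, so these counts are not read as an effect of the window.

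The median difference over all tested entries was 0.21 on the log2(RPKM+1) scale, and 3805 entries (56.0%) had a difference above 0. With quantile normalization the median became -0.02 and with median-ratio scaling -0.07, and the counts at an unadjusted p under 0.05 became 174 and 101, and 151 and 92. The median SD of an entry within a group was 2.10 and the median standard error of a difference was 1.68, so a difference had to be large to exceed the spread between embryos. The plot of differences against p shows the 4 entries past the threshold apart from the rest.

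**Figure D2:**
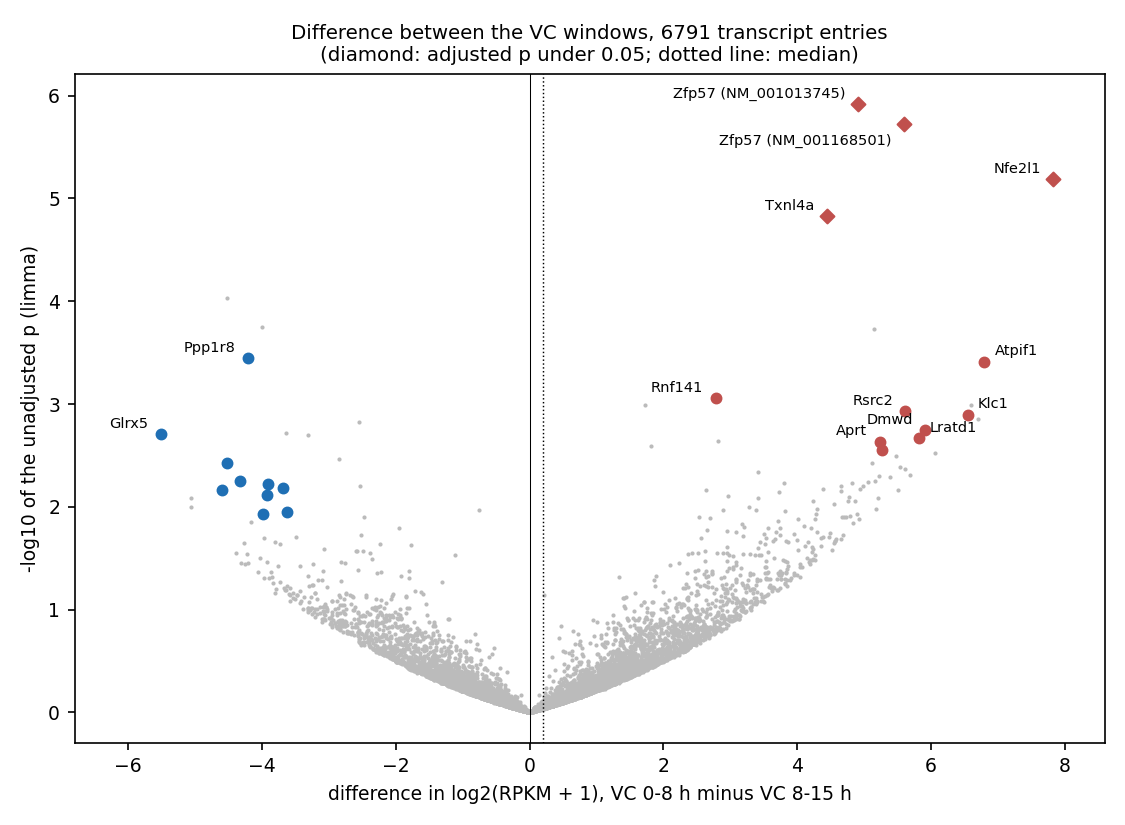
Difference between the windows for the 6791 tested entries on the log2(RPKM+1) scale (early minus late, x axis) against minus log10 of the unadjusted limma p (y axis). Diamonds are the 4 entries at an adjusted p under 0.05, all to the right, coloured circles the other entries named by rank, and the dotted line the median of 0.21.

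Zfp57 encodes a zinc finger protein that binds methylated DNA at imprinting control regions and recruits TRIM28, and so helps to keep imprints through the demethylation of the early embryo. The gene lies at chr17:37138108-37147580 on the plus strand of mm9, and the files hold 3 entries for it. NM_001013745 was at 871, 2362 and 719 RPKM in the early embryos and at 395, 2.41, 297, 2.54 and 50.9 RPKM in the late embryos. Every early embryo was above every late embryo. The difference was 4.91 (SE 0.95, 95% interval 3.02 to 6.80, limma adjusted p = 0.00635) on the log2(RPKM+1) scale.

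The second Zfp57 entry, NM_001168501, was at 834, 2264 and 487 RPKM early and at 383, 2.31, 313, 2.44 and 1.85 RPKM late. Its difference was 5.60 (SE 1.11, limma adjusted p = 0.00635). It is not independent of the first, because the read numbers of both entries differed by at most 1 in 4 of the 8 embryos, while they were 2382 against 1686 in TSA(0-8h)+VC(0-8h) replicate 2 and 158 against 6 in TSA(0-8h)+VC(8-15h) replicate 3. The third entry, NM_001168502, was at 176, 287 and 207 RPKM early and at 86.8, 75.1, 79.9, 105 and 14.1 RPKM late. Here too the groups did not overlap, but the difference of 1.86 (SE 0.94, limma adjusted p = 1.00) did not pass.

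With its 3 entries summed, Zfp57 ran from 1413 to 4914 RPKM early and from 66.8 to 865 RPKM late, a difference of 3.54 (limma adjusted p = 0.000313). The sum is not an independent check. In each early embryo both entries past the threshold made up most of it, as with 2362 and 2264 of 4914 RPKM in TSA(0-8h)+VC(0-8h) replicate 1. Because the windows did not overlap for Zfp57, early embryos had to be above late ones within any stratum, so that order adds no support. For NM_001013745 the difference was 5.10 with TSA and 4.57 without it, and 2.78 in sequencing pool 1 and 7.83 in pool 2. Embryos without VC overlapped both windows for this entry, at 4.03 to 910 RPKM. Controls were at 880, 4.03 and 910 and TSA(0-8h) embryos at 120, 753 and 419. The call for NM_001013745 was lost without TSA(0-8h)+VC(0-8h) replicate 1 (4.40, adjusted p = 0.076 by limma) and without VC(8-15h) replicate 2 (3.94, adjusted p = 0.244 by limma). Neither Zfp57 entry passed with quantile normalization or median-ratio scaling.

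Nfe2l1 encodes a membrane-anchored transcription factor of the CNC family that controls proteasome and oxidative stress genes. It lies at chr11:96678728-96691282 on the minus strand, and the files hold 4 entries for it. NM_008686 was at 800, 631 and 319 RPKM in the early embryos and at 0, 1.01, 3.07, 0 and 7.60 RPKM in the late embryos, the latter from 0 to 14 reads. The groups did not overlap, and the embryos without VC, at 0 to 23.8 RPKM, were also below every early embryo. The difference was 7.83 (SE 1.65, 95% interval 4.56 to 11.10, limma adjusted p = 0.0147).

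The other Nfe2l1 entries did not follow that pattern. NM_001130450, the longest, was at 93.9, 192 and 140 RPKM early and at 214, 189, 209, 305 and 168 RPKM late, a difference of -0.66 (SE 0.73). NM_001130454 ranged from 9.73 to 718 RPKM early and from 3.02 to 1479 RPKM late. With all entries of the gene summed the difference was 0.92 (limma adjusted p = 1.00), so the gene as a whole did not pass. Leaving out any 1 of the 3 early embryos ended the call of NM_008686, though the difference stayed large, at 7.10 without VC(0-8h) (limma adjusted p = 1.00), 7.80 without TSA(0-8h)+VC(0-8h) replicate 1 (0.275) and 8.32 without replicate 2 (0.103).

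Txnl4a encodes DIM1, a small component of the U5 ribonucleoprotein of the spliceosome. Its entry NM_001042408 was at 1130, 897 and 636 RPKM early and at 1.27, 26.6, 1194, 109 and 6.11 RPKM late. TSA(0-8h)+VC(8-15h) replicate 1 was above all early embryos, so the groups overlapped, and the embryos without VC were at 0 to 44.8 RPKM. The difference was 4.45 (SE 0.98, limma adjusted p = 0.0252). The longest entry, NM_025299, was at 24.4, 18.5 and 4.11 RPKM early and at 0.314, 0.627, 0.297, 2.29 and 0.294 RPKM late, without overlap, but its difference of 3.08 (SE 1.65, limma adjusted p = 1.00) did not pass. Some of its reads may be those of the first entry, since both held 234 in TSA(0-8h)+VC(0-8h) replicate 1. The remaining entry, NM_178604, was at 216, 158 and 86.2 RPKM early and at 151, 8.05, 53.7, 41.6 and 126 RPKM late. Summed over its 3 entries, Txnl4a had a difference of 2.52 (limma adjusted p = 0.55). The call was lost without VC(0-8h) (2.95, limma adjusted p = 1.00), VC(8-15h) replicate 1 (3.66, 0.0757), VC(8-15h) replicate 2 (4.72, 0.244) or TSA(0-8h)+VC(8-15h) replicate 3 (3.50, 0.111). It was also lost with the replicate number as a block (3.33, limma adjusted p = 0.384) and with sequencing pool as a term (3.37, 0.382).

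**Figure D3:**
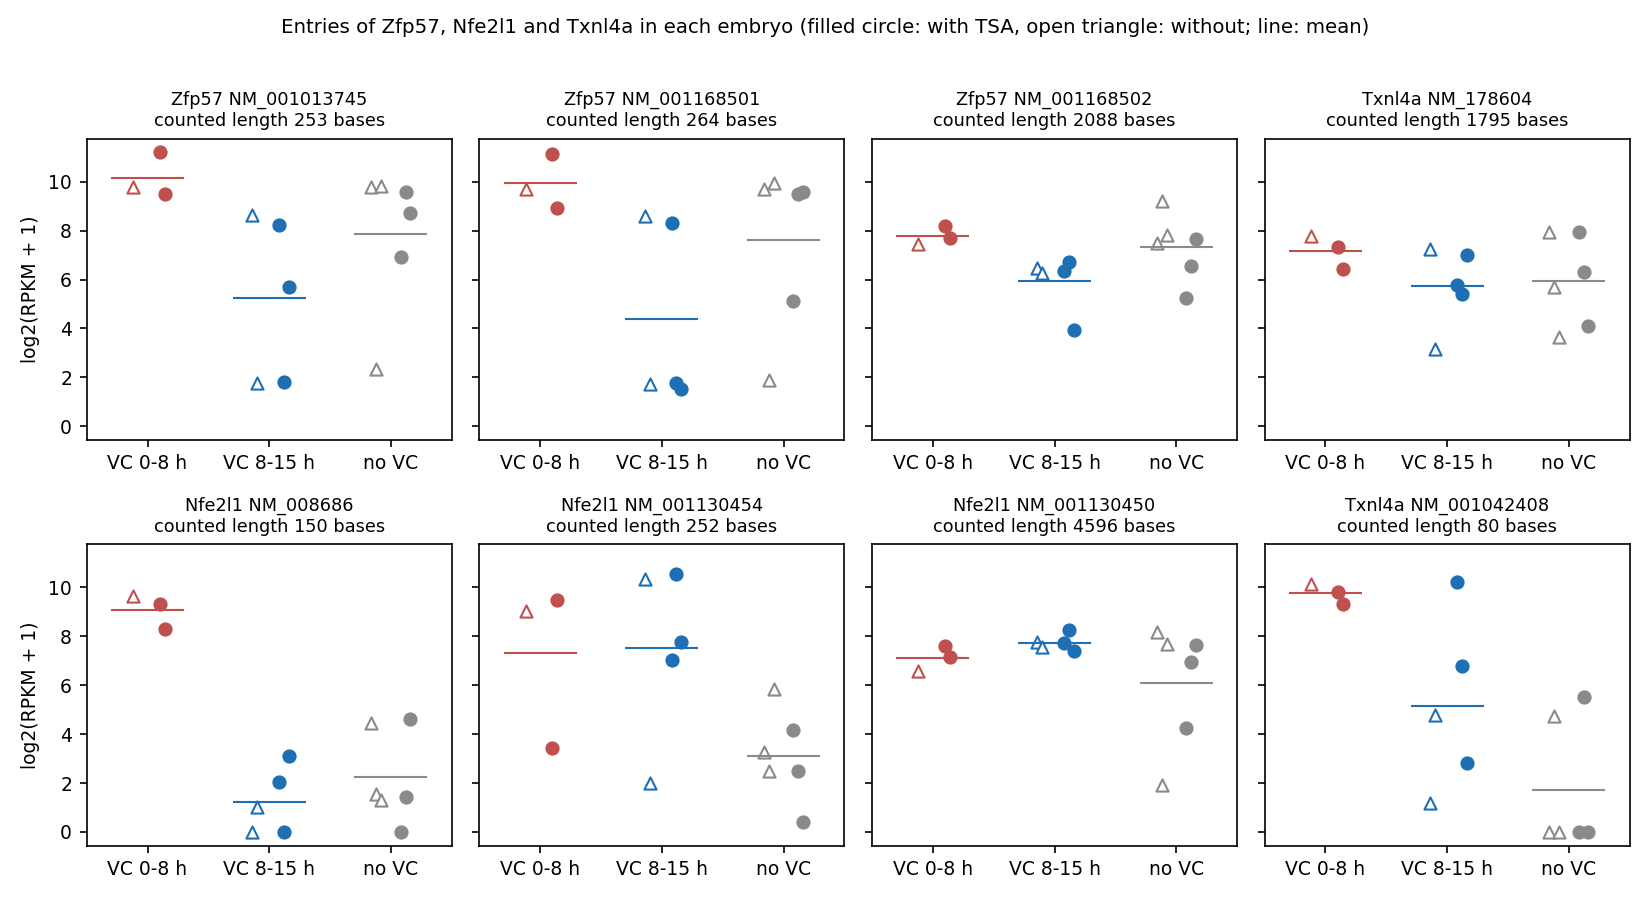
RPKM of tested entries of Zfp57, Nfe2l1 and Txnl4a as log2(RPKM+1) (y axis) in embryos with VC at 0-8 h, with VC at 8-15 h and without VC (x axis). NM_001130451 of Nfe2l1 and NM_025299 of Txnl4a are not shown. Filled circles are embryos given TSA, open triangles embryos without TSA, and lines group means. The early embryos lie above the late ones in all 3 Zfp57 entries and in 1 entry of Nfe2l1. In both Txnl4a entries shown the windows overlap.

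All 4 entries past the threshold were short. The length over which their reads were counted, recovered from the RPKM of 1 read, was 253 and 264 bases for Zfp57, 150 for Nfe2l1 and 80 for Txnl4a, against 2088, 4596 and 3881 bases for the longest entry of each gene. The 253 bases of Zfp57 NM_001013745 equal 1 annotated exon, chr17:37139470-37139722, and the 150 bases of Nfe2l1 NM_008686 equal the exon chr11:96691133-96691282 at the 5′ end of the gene. Neither exon holds coding bases in the mm9 annotation. Of the 508 tested entries that were not the longest of their gene, 161 (31.7%) had a length equal to an annotated exon, against 28 (0.655%) of the 4278 entries that were alone for their gene. With only the longest entry of each gene tested, 0 of 6138 passed by limma, with 166 higher and 53 lower at an unadjusted p under 0.05, so the calls are on parts of genes and on few bases.

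Apart from these, the early-high genes of the smallest p among those whose groups did not overlap were diverse and did not pass, with limma adjusted p from 0.292 to 0.753. Atpif1 encodes the inhibitor of the mitochondrial ATP synthase. It was at 189, 115 and 451 RPKM early and at 0, 3.10, 1.71, 1.43 and 0 RPKM late, a difference of 6.80 (SE 1.85). Rnf141, which encodes a RING finger protein, was at 487, 607 and 408 RPKM early and at 196, 189, 99.6, 88.1 and 6.93 RPKM late, a difference of 2.78 (SE 0.81). The gap between the groups was from 196 to 408 RPKM for Rnf141 and from 3.10 to 115 RPKM for Atpif1.

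Among genes near or at 0 in late embryos, Dmwd was at 85.0, 97.4 and 26.2 RPKM early and at no more than 0.0604 RPKM late. Lratd1 was at 45.6, 187 and 23.4 RPKM early and at no more than 0.18 RPKM late. Bud31, which encodes a splicing factor, was at 284, 14.8 and 9.85 RPKM early and at 0 in 4 of the 5 late embryos. Aprt, which salvages adenine, was at 122, 329 and 123 RPKM early and at 32.7, 0.176, 0, 1.78 and 17.4 RPKM late. Their differences ran from 5.24 to 5.91 on the log2(RPKM+1) scale. Dmwd, Lratd1 and Bud31 were under 1 RPKM in every late embryo. They passed the filter of 3 embryos only because all 3 early embryos reached 1 RPKM. Their lack of overlap was thus fixed by the filter and is no support for a difference between the windows. The entry of Klc1, a kinesin light chain, ranged from 7.54 to 887 RPKM early and from 0 to 2.38 RPKM late. The entry of Rsrc2 ranged from 40.6 to 656 RPKM early and from 0.426 to 15.7 RPKM late, and the lengths counted were 162 and 191 bases.

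In the opposite direction none passed, and the 10 late-high genes of the smallest p without overlap had limma adjusted p from 0.292 to 1.00. Ppp1r8, a nuclear inhibitor of protein phosphatase 1, was at 8.63, 0.300 and 79.2 RPKM early and at 156, 607, 109, 207 and 118 RPKM late, a difference of -4.21 (SE 1.14). Glrx5, a mitochondrial glutaredoxin for iron-sulfur cluster assembly, was at 1.01, 0 and 0.328 RPKM early and at 14.6, 94.2, 36.4, 132 and 123 RPKM late, a difference of -5.51. Gclc, the catalytic subunit of the rate-limiting enzyme of glutathione synthesis, was at 5.48, 0.268 and 5.97 RPKM early and at 60.2, 143, 58.4, 25.2 and 75.4 RPKM late, a difference of -3.98. Glutathione is the thiol that glutaredoxins use and that can recycle oxidized VC, and the embryos without VC had Gclc at 0.215 to 3.92 RPKM.

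Fdft1, squalene synthase, was at 0.902, 7.39 and 1.28 RPKM early and at 76.6, 121, 37.2, 54.7 and 125 RPKM late. Hsp90b1, the chaperone of the endoplasmic reticulum, was at 2.13, 6.33 and 17.7 RPKM early and at 53.0, 233, 154, 80.1 and 48.7 RPKM late. Tex19.1, a germline and embryo gene that acts against retrotransposons, was at 1.21, 0.176 and 4.48 RPKM early and at 14.3, 135, 93.5, 28.2 and 107 RPKM late. The remaining 4 were Srsf3, a splicing factor, Wbp2, Tchp and Pramel19, with differences from -4.33 to -3.63. For 8 of the 10 genes the highest late embryo was VC(8-15h) replicate 2, the library that stood apart.

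**Figure D4:**
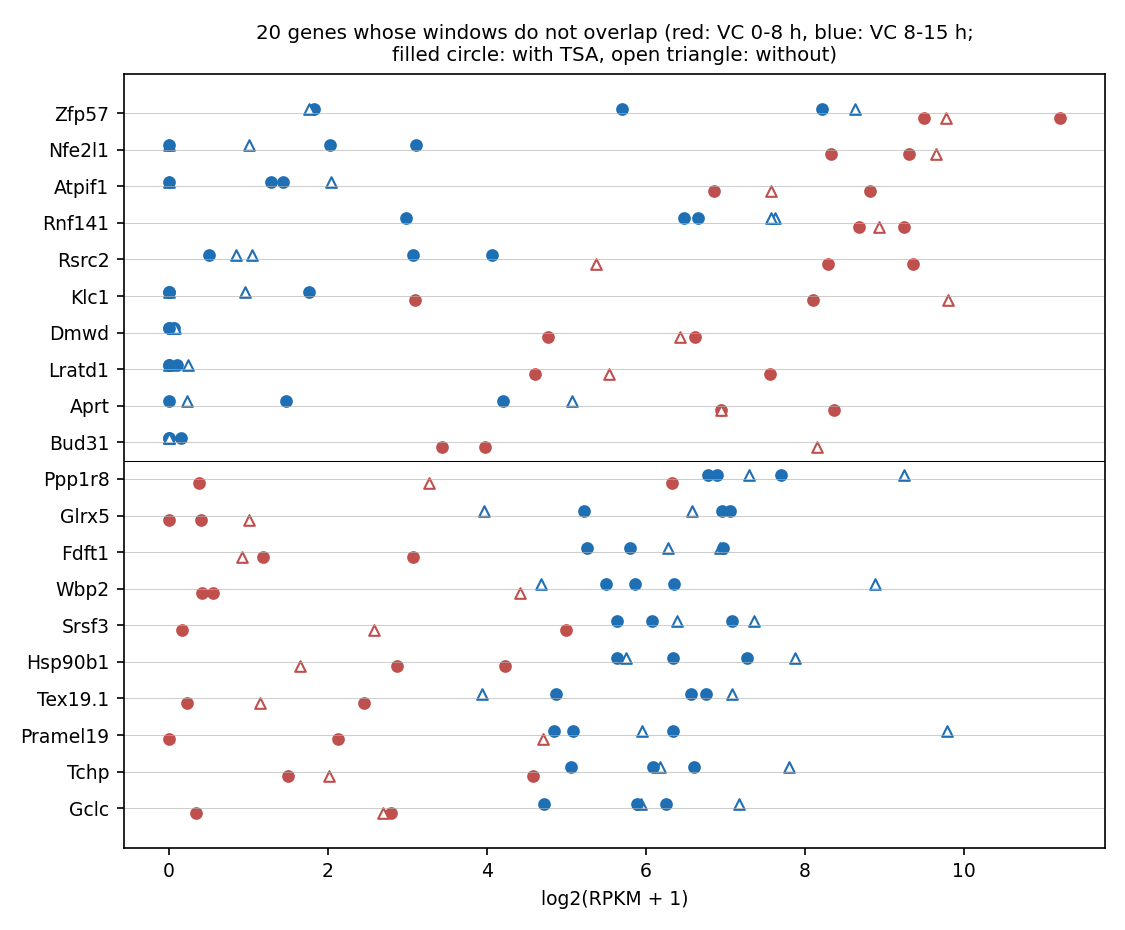
The 10 early-high and 10 late-high genes of the smallest p among those whose groups did not overlap, as log2(RPKM+1) in each of the 8 embryos. The early-high genes include Zfp57 and Nfe2l1, which passed the adjusted threshold, and none of the late-high genes passed.

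Gene lists for processes on which VC, TSA or the 2-cell stage bear are given by their counts at an unadjusted p under 0.05, which over all tested entries were 2.89% higher and 0.957% lower. After adjustment over all tested entries no member of any list passed except both Zfp57 entries, in the DNA methylation list. The medians below stand beside 0.21 for all tested entries, and the plot of the lists shows each member.

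H3K9 demethylases, the jumonji enzymes that use VC as a cofactor, had 0 of 11 entries at an unadjusted p under 0.05 and a median difference of 0.49. Kdm7a was at 65.5, 161 and 68.9 RPKM early and at 63.6, 120, 53.8, 111 and 23.6 RPKM late. Kdm3a NM_173001 was the only entry of the list without overlap, at 48.7 to 62.9 RPKM early and 16.5 to 39.7 RPKM late. Its difference was 1.18 (SE 1.35). Kdm3a NM_001038695 overlapped, at 0 to 676 RPKM early and 0 to 367 RPKM late (2.22, SE 1.65). With its entries summed, Kdm3a overlapped too, with a difference of 2.15 (SE 0.99). That difference met the unadjusted threshold but did not pass after adjustment. Kdm3b was at 13.2, 0.215 and 7.08 RPKM early and at 3.42, 33.2, 12.9, 39.3 and 7.80 RPKM late, with a difference of -1.50 (SE 1.91, 95% interval -5.28 to 2.29). That interval includes both a large fall and a large rise, so Kdm3b could not be placed. Of the other 2-oxoglutarate dioxygenases, 1 of 23 entries was higher at that p and 0 were lower, with a median of 0.46. That entry was Alkbh2, a DNA repair enzyme that removes alkyl groups from bases, at 13.4, 34.2 and 86.2 RPKM early and at 1.90, 0.286, 0, 0.362 and 0 RPKM late (difference 4.66, SE 1.84), with 0 to 0.311 RPKM in embryos without VC. Kdm5b, an H3K4 demethylase, ranged from 76.3 to 170 RPKM early and from 29.3 to 195 RPKM late.

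The H3K9 methyltransferases and HP1 proteins that read the mark had 0 of 13 entries at an unadjusted p under 0.05, with a median of 0.47. Suv39h1, an H3K9 methyltransferase, was at 94.9, 61.1 and 74.1 RPKM early and at 4.78, 0.244, 0.591, 39.2 and 154 RPKM late. Trim28, the corepressor that ZFP57 recruits, was at 220, 33.0 and 162 RPKM early and at 70.6, 2.35, 172, 118 and 110 RPKM late, so its groups overlapped. In the DNA methylation list of 13 entries the only ones at that p were both of Zfp57, and Hells, a chromatin remodeller needed for DNA methylation, ranged from 29.7 to 152 RPKM early and from 6.26 to 375 RPKM late. The histone deacetylase list, in which 4 of 8 tested entries were sirtuins, enzymes that TSA does not inhibit, had 0 entries at that p and a median of 1.38. Hdac1 is among the enzymes that TSA inhibits. It was at 59.1, 85.5 and 187 RPKM early and at 45.5, 18.1, 5.49, 123 and 14.1 RPKM late.

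Genes of the wave of transcription at the 2-cell stage had 1 of 24 entries higher and 2 lower in the early window at an unadjusted p under 0.05, with a median of 0.28. Usp17lb, a deubiquitinase gene of that wave, was at 200, 312 and 25.2 RPKM early and at 0.0721, 0.433, 164, 5.94 and 46.7 RPKM late. Tdpoz1 was at 0.612, 0.799 and 20.9 RPKM early and at 17.8, 99.3, 32.7, 62.8 and 81.7 RPKM late. Spz1, a transcription factor gene, was at 18.2, 4.21 and 14.0 RPKM early and at 27.5, 64.5, 164, 52.7 and 182 RPKM late, with no overlap. Transcripts laid down by the oocyte had 0 of 29 entries at that p and a median of 0.20, with Bmp15 at 345, 455 and 235 RPKM early and at 462, 467, 260, 246 and 220 RPKM late. Pluripotency genes had 0 of 11 and a median of 0.04, and Lin28a ranged from 67.6 to 112 RPKM early and from 104 to 237 RPKM late.

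DNA replication genes had 1 of 32 entries higher and 3 lower, with a median of -0.18. The lower ones were Gmnn, which encodes geminin, the inhibitor of replication licensing, its target Cdt1, and an entry of Dbf4, the activator of the CDC7 kinase. Gmnn was at 309, 15.7 and 45.3 RPKM early and at 206, 1037, 121, 243 and 202 RPKM late. Cdt1 was at 45.2, 0.42 and 132 RPKM early and at 38.5, 391, 70.8, 124 and 243 RPKM late. The Dbf4 entry counted 46 bases and its low mean came from a single embryo, since it was 0 RPKM in TSA(0-8h)+VC(0-8h) replicate 1 and between 866 and 3434 RPKM in the other 7 embryos. Its difference of -2.55 (SE 0.78, limma adjusted p = 0.63) became 1.29 without that embryo (limma adjusted p = 0.021), and with sequencing pool as a term it was -3.06 (limma adjusted p = 1.4e-07). The higher one was Cdc45, a helicase cofactor, at 152, 352 and 78.0 RPKM early and at 93.1, 0.639, 1.40, 37.9 and 235 RPKM late.

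Antioxidant genes had 2 of 15 entries higher and 1 lower, with a median of 0.21, so the list did not lean to a side. Gclc was the lower one. Txn2, mitochondrial thioredoxin, was at 17.9, 53.3 and 63.2 RPKM early and at 0.158, 0.119, 0.539, 0.602 and 28.1 RPKM late. Prdx4, the peroxiredoxin of the endoplasmic reticulum, was at 3.85, 417 and 129 RPKM early and at 3.12, 28.4, 5.43, 0.792 and 0.501 RPKM late. Genes of VC uptake and recycling had 0 of 4 tested entries at an unadjusted p under 0.05, and Slc23a2, the sodium-dependent VC transporter, was at 30.6, 0.144 and 16.5 RPKM early and at 1.70, 0.0956, 0.398, 20.6 and 27.6 RPKM late. Base excision repair had 0 of 6 higher and 1 lower. This was Parp2, a DNA damage sensor, at 1.31, 1.20 and 4.99 RPKM early and at 144, 319, 90.8, 95.1 and 0.0911 RPKM late. Apoptosis genes had 1 of 15 higher and 0 lower, with a median of -0.07. The higher one was Birc5, survivin, at 15.9, 250 and 131 RPKM early and at 7.82, 50.2, 0.237, 10.9 and 5.70 RPKM late.

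**Figure D5:**
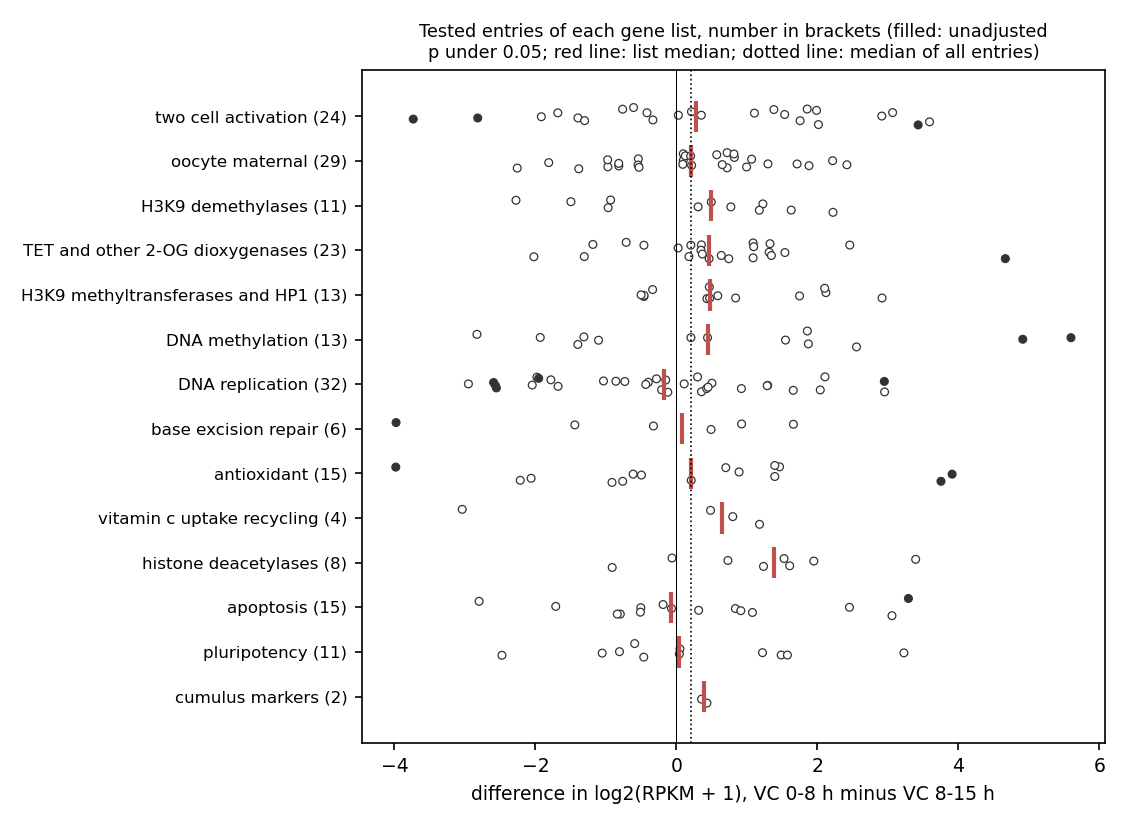
Difference between the windows for each tested member of 14 gene lists on the log2(RPKM+1) scale (early minus late, x axis), 1 row per list. Filled points have an unadjusted p under 0.05, red lines are list medians and the dotted line is the median of all tested entries. Members of every list with more than 2 tested entries lie on both sides of 0.

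Markers of the donor and host cells were set beside these lists. Of 22 markers of cumulus cells, the donor cells named in the study's methods, 0 were at 1 RPKM or more in all 8 embryos and 4 were in any of them (Amhr2, Gata4, Has2 and Star). Another 7, among them Fshr, Lhcgr and Ptx3, were at 0 in all 8. Their summed level was 32.5 to 117 RPKM early and 0.608 to 228 RPKM late. Of 10 oocyte markers 4, and of 8 markers of the 2-cell embryo 2, were at 1 RPKM or more in all 8 embryos, and all 10 and all 8 reached it in some embryo. Early against late, the sums were 1468 to 3573 against 1896 to 4149 RPKM for the oocyte. For the 2-cell embryo they were 146 to 553 against 330 to 470 RPKM. The windows overlapped in all 3 sums.

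Whether the difference between the windows itself depended on TSA was tested by an interaction term in limma. No entry passed after adjustment (0%, smallest adjusted p = 0.216), and 194 (2.86%) had an unadjusted p under 0.05. The entry of the smallest p was Arhgap1 NM_001145902, at 80.0 RPKM in VC(0-8h), 0 and 1.13 in VC(8-15h), 0 and 6.22 in TSA(0-8h)+VC(0-8h) and 713, 880 and 573 in TSA(0-8h)+VC(8-15h). All 3 embryos with TSA followed by late VC were thus above the other 5 (interaction -13.84, SE 3.00, limma adjusted p = 0.216). The entry counts 135 bases, and its group without TSA is 1 embryo against 2. For Eif4a1, an RNA helicase of translation initiation, the early embryos were at 409, 427 and 161 RPKM and the late ones at 3.27, 0.223, 301, 74.7 and 743 RPKM (interaction -7.45, limma adjusted p = 1.00).

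The study describes the embryos with TSA followed by late VC as coming from independent nuclear transfers. For the other groups the labels do not say so, and there the p-values measure the spread between these embryos. Sequencing pools, taken from the library identifiers, held embryos of both windows in pools 1 and 2, and pool 3 held 1 late embryo.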

How the data were processed

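RNA of 14 single SCNT embryos was sequenced as single-end reads, and the 8 embryos given VC were compared here. The authors removed poor bases and adaptors, aligned to the mm9 build by TopHat with UCSC exon locations and counted exonic reads. They deposited RPKM, that is counts divided by library total and transcript length. The submitters' processing notes also name TopHat2 and mm9. How reads were divided between entries of 1 gene is not given in the sources used here. Read numbers were worked out from the smallest RPKM steps, and came out whole (within 0.01) for 14531 of 14532 entries above 0 in at least 2 embryos.

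Groups came from the sample labels. Entries at 1 RPKM or more in at least 3 of the 8 embryos were tested with limma 3.58.1 in R 4.3.3 (lmFit, eBayes with trend) on log2(RPKM+1), two-sided, with window and TSA as terms and Benjamini-Hochberg adjustment at 0.05. Differences are early minus late on that scale, which understates the change of low entries. Single values per embryo were tested by exact permutation of the window within TSA strata. The fit was tested on simulated data. Named genes were, in each direction, the 10 non-overlapping ones of the smallest p, up to 3 of the highest mean RPKM per list, Kdm3b and the 3 of the smallest interaction p. List members at an unadjusted p under 0.05, Txnl4a, the second Zfp57 entry and Kdm3a NM_173001 were named after their values were seen. The comparison and the lists were chosen with earlier results of these data known. Gene coordinates and exons are from the mm9 annotation. Deviations from the values fitted by window and TSA correlated from -0.31 to 0.26 between same-numbered embryos of different windows. The fit ties these deviations to each other, so they cannot show whether the numbers pair embryos. The numbers were not taken to pair them, and a block for them is among the alternatives. Alternatives are given in the closing section. Python 3.11.15, pandas 2.3.3, numpy 2.4.6, scipy 1.17.1 and matplotlib 3.10.9 did the other steps. The authors' counts, retroelements and tests against embryos without VC were not analysed here.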

Additional observations from a re-analysis of the deposited data

Results flagged for a closer look

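In each group of 5 late embryos, Dixon's test asks whether the lowest or the highest embryo lies apart, and chance gives this in about 1 of 20 groups; 26 sets of values were checked. VC(8-15h) replicate 2 lay apart with 3322 entries at 1 RPKM or more, and with 3312 after every embryo was thinned to the reads of the shallowest library, so depth does not move this value. TSA(0-8h)+VC(8-15h) replicate 3 lay apart below the other late embryos for Rnf141, at 2.99 on the log2(RPKM+1) scale. The same embryo was the only late one above 0 for Bud31, at 0.158 on that scale.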

How the results depend on the processing

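Against 4 entries higher in the early window at an adjusted p under 0.05, 0 passed with a pseudocount of 0.1, with no filter, with a minimum of 5 RPKM, without the eBayes trend, in 1 fit of all 14 embryos, or with the longest entry of each gene alone, which was added after seeing the data. With quantile normalization or median-ratio scaling 1 passed, Nfe2l1 NM_008686, so both Zfp57 entries and Txnl4a were lost. With summed entries 1 passed, Zfp57, and Nfe2l1 was lost. With pool as a term or in pools 1 and 2 alone 7 passed, and with limma-voom on recovered reads 10, none of these 10 among the 4. The limma-voom calls include small differences with extreme adjusted p, so its counts cannot be relied on. Leaving out each embryo in turn gave 1 to 7, with 1 without VC(8-15h) replicate 2 and 7 without TSA(0-8h)+VC(0-8h) replicate 2. Against 0 lower, 6 passed in the TSA-treated embryos alone, 2 with pool as a term, 3 in pools 1 and 2 alone, 3 with limma-voom and 0 to 3 with an embryo left out. With the replicate number as a block 3 entries were higher, 2 lower and 1 passed for the interaction. The Dbf4 difference of -2.55 turned to 0.12 with its entries summed, and ran from -4.92 to 1.29 with an embryo left out, above 0 only without TSA(0-8h)+VC(0-8h) replicate 1. At an unadjusted p under 0.05, the TSA-treated embryos alone gave 128 higher and 128 lower, and no filter 302 and 75. The causes were not tested beyond the construction of each alternative. Over their alternatives the exact permutation p was 0.167 to 1.00 for entries at 1 RPKM or more and 0.167 to 0.867 for the distance between windows, but those with embryos left out allow no p under 0.05 and say nothing of stability. With 3 against 5 embryos, a median standard error of 1.68 limits what could be called.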
